A study of Mus musculus with 16 samples.

Results

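The clustered protocadherin genes were examined in 16 bulk RNA sequencing libraries of cultured mouse pluripotent stem cells. Members were taken by gene symbol, as the rows named for an alpha, beta or gamma cluster gene followed by a number. This gave 56 of the 34042 rows of the count table, with 13 alpha, 22 beta and 21 gamma members. The libraries came from 4 cultures: formative stem cells (FS) in A3XR medium (6 libraries), epiblast stem cells in AF medium (EpiSC_AF, 3 libraries), epiblast stem cells in AFX medium (EpiSC_AFX, 3 libraries) and embryonic stem cells (ES) in 2iL medium (4 libraries). No genotype, strain or age is given in the labels used here, and no genetic change is named for any group. The FS libraries are passages 10, 12 and 14 of the line 5ar1 (replicates 1 to 3) and passages 12, 4 and 5 of the line 5ar3 (replicates 4 to 6). EpiSC_AF is the line AF32 at passages 13, 14 and 15, EpiSC_AFX is the line AFX6 at passages 12, 5 and 8, and ES is the line E14IV-C at passages 12, 13, 15 and 20. Every group except FS is thus a single line, so line and medium cannot be told apart outside FS. In the comparisons of groups, p-values measure the spread between passages and, within FS, also between its lines. The groups share an estimate of spread, so this also enters the comparisons without FS. In the comparison of the FS lines, p-values measure the spread between passages of these lines.

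ES cells in 2iL are kept in a naive state, which corresponds to the epiblast before implantation. EpiSCs correspond to a later, primed epiblast, and formative cells are placed between the naive and primed states. As background on the media, AF is known to contain activin and fibroblast growth factor, the X denotes a Wnt pathway inhibitor, and the R of A3XR an inhibitor of retinoic acid receptor signalling.

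Clustered protocadherins are cadherin-like cell surface proteins that bind identical proteins on a neighbouring cell, and they are best known in neurons, where the mix of isoforms on each cell lets it recognise its own branches. Each variable exon has its own promoter. In the alpha and gamma clusters the variable exon is spliced to constant exons shared by the whole cluster, whereas beta genes have a single coding exon and no shared constant part. Promoter choice is known to involve DNA methylation and looping by CTCF and cohesin to distal enhancers. The C-type members at the 3′ end of the alpha cluster (Pcdhac1 and Pcdhac2) and of the gamma cluster (Pcdhgc3, Pcdhgc4 and Pcdhgc5) are known to be controlled differently from the others, and Pcdhac2 is known for broad expression in serotonergic neurons.

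All members lie on the plus strand of mouse chromosome 18 (GRCm38, GENCODE release M21). The alpha cluster spans 36930184 to 37187661, the beta cluster 37264938 to 37524479 and the gamma cluster 37661793 to 37841873. Because alpha and gamma genes share their 3′ exons, levels per length were taken over the bases that belong to 1 member only, which came to 494 to 3028 bases for alpha members and 1570 to 4614 for gamma members. The row named Pcdhga8 carries an identifier that release M21 names Pcdhgc4, so its identity is uncertain and it is given here under the name in the table. The row Pcdha11 carries 1 of 2 identifiers with that symbol. The variable exon of Pcdhga10 is overlapped by the antisense gene Gm26672, and the strand setting of the counting is not given in the sources used here, so reads of the pair may not be separated. Opposite-strand exons also overlap part of 10 other members, and leaving those bases out would shorten Pcdhgc3 from 3380 to 1821 bases, Pcdhga11 from 2637 to 1256, Pcdhgb7 from 2594 to 1823 and Pcdha12 from 2475 to 1944. Levels per length below use the longer values, and the part of these overlaps in the counts was not tested.

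Total counts ran from 22069338 to 33290250 per library, and 3 counts, the floor used below, equal between 0.0956 and 0.207 CPM (counts scaled to library size and TMM normalisation factor). The labels were checked with marker lists. Summed naive markers were 2223 to 3469 CPM in ES and 4.43 to 12.7 CPM in the other 12 libraries, and all 5 formative and primed epiblast markers rose in each of FS, EpiSC_AFX and EpiSC_AF over ES. Summed markers of 12 neural genes were 155 to 206 CPM in ES, 384 to 640 in FS, 492 to 859 in EpiSC_AFX and 487 to 794 in EpiSC_AF. Dcx, Neurog2 and Rbfox3, which mark neuronal progenitors and neurons, were at 0 in all ES libraries. Summed markers of 7 fibroblast genes were 0.361 to 0.935 CPM in ES, 7.45 to 15.9 in FS, 7.39 to 17.97 in EpiSC_AFX and 32.2 to 78.9 in EpiSC_AF. These lists move with the groups, and their part in the results below was not tested. In bulk libraries, fewer expressing cells and less RNA per cell cannot be told apart.

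The 3 clusters followed different courses across the cultures. Alpha and beta members were close to absent from ES and present in the other cultures, beta members were low in EpiSC_AFX, and the gamma cluster was read in every library, with group means that differed far less. The summed alpha level was 0.0951 ± 0.0284 CPM in ES (SD, n = 4), which is 1 to 3 counts per library. It was 4.09 ± 1.89 in FS (SD, n = 6), 2.12 ± 0.202 in EpiSC_AFX (SD, n = 3) and 6.83 ± 0.328 in EpiSC_AF (SD, n = 3). No ES library overlapped any other group. The FS libraries, from 2.102 to 7.548 CPM, spanned those of EpiSC_AF (6.47 to 7.11 CPM) and overlapped those of EpiSC_AFX (1.90 to 2.28 CPM).

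The summed beta level was 0.4996 ± 0.126 CPM in ES (SD, n = 4), from 7 to 15 counts per library. It was 2.43 ± 1.11 in EpiSC_AFX (SD, n = 3), 15.6 ± 5.42 in FS (SD, n = 6) and 13.9 ± 1.82 in EpiSC_AF (SD, n = 3). The highest EpiSC_AFX library, at 3.67 CPM, lay below the lowest FS library, at 8.73 CPM, and below the lowest EpiSC_AF library, at 12.8 CPM. The summed gamma level was 48.7 ± 4.82 CPM in ES (SD, n = 4), 55.9 ± 21.03 in FS (SD, n = 6), 54.2 ± 12.6 in EpiSC_AFX (SD, n = 3) and 59.7 ± 1.60 in EpiSC_AF (SD, n = 3). The FS libraries alone ran from 31.1 to 84.5 CPM and covered the range of the other groups, with 42.6 ± 17.2 in line 5ar1 and 69.3 ± 16.5 in line 5ar3 (SD, n = 3 each). The EpiSC_AF libraries, at 57.96 CPM or more, lay above the ES libraries, at 53.5 CPM or less. Sums over chosen members were given no test.

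**Figure D1:**
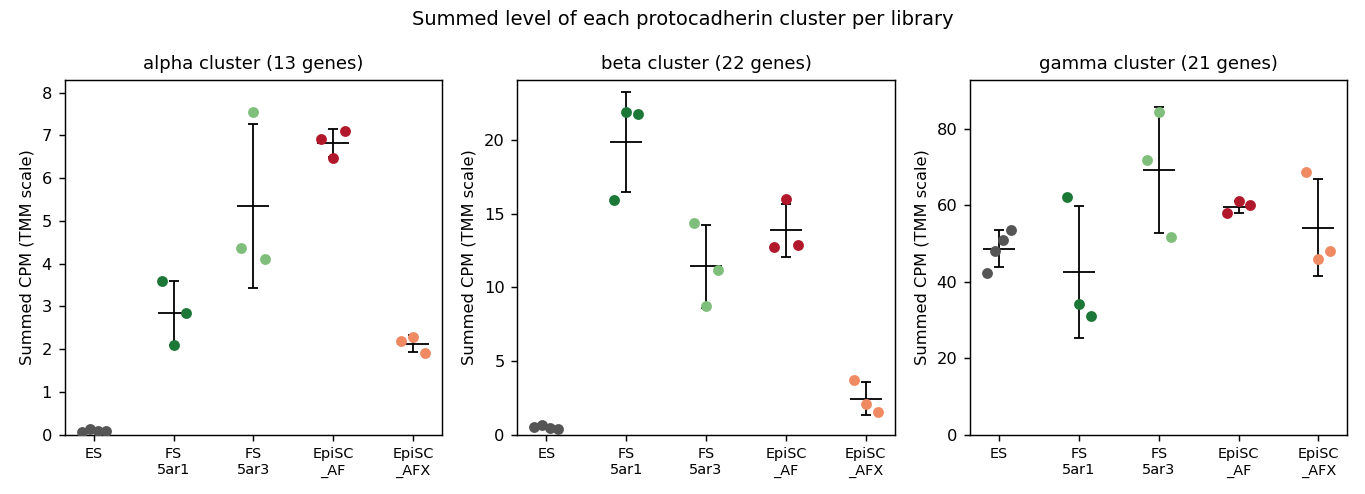
Summed CPM (TMM scale) of the alpha, beta and gamma cluster in each of the 16 libraries, with FS shown by line; points are libraries, the long tick is the mean and the bar the SD. Alpha and beta sums stay below 1 CPM in ES, EpiSC_AFX is the lowest of the other groups for beta, and the gamma sums of FS overlap those of every other group, while all EpiSC_AF libraries lie above all ES libraries.

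As a share of all clustered protocadherin counts, the gamma cluster took 98.8% ± 0.341 in ES (SD, n = 4) and 92.3% ± 1.05 in EpiSC_AFX (SD, n = 3). It took 71.8% ± 11.6 in FS (SD, n = 6) and 74.3% ± 0.995 in EpiSC_AF (SD, n = 3). The beta share was 1.03% ± 0.294 in ES, 4.03% ± 0.994 in EpiSC_AFX, 17.2% ± 1.65 in EpiSC_AF and 22.9% ± 12.5 in FS.

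Counts were also spread over different numbers of genes. With at least 10 counts as the limit, no alpha or beta member was detected in any ES library, which had 15 to 19 gamma members. FS libraries had 3 to 4 alpha, 7 to 10 beta and 17 to 20 gamma members, and EpiSC_AF libraries 4 to 6, 9 to 12 and 15 to 19. EpiSC_AFX libraries had 2 alpha, 1 to 5 beta and 17 to 19 gamma members.

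Position along the cluster went with detection. The 5 alpha members that passed the low-count filter, Pcdha7, Pcdha11, Pcdha12, Pcdhac1 and Pcdhac2, sit at positions 7 to 13 of 13. The 9 beta members that passed, Pcdhb11, Pcdhb14 and Pcdhb16 to Pcdhb22, sit at positions 11 to 22 of 22. Pcdha8, Pcdha9, Pcdhb12, Pcdhb13 and Pcdhb15 lie inside these ranges and did not pass. The filter works on counts, and beta members also differed in length. Those that passed have 3559 to 8695 bases of their own, and those that did not have 2588 to 3787. The part of length in this pattern was not tested. In the gamma cluster 20 of 21 passed, from the first to the last gene, and Pcdhgb8 did not. Members upstream in the alpha and beta clusters were at or near 0 in ES and low elsewhere: Pcdha4 had no count in any library, and the highest value of Pcdhb1 to Pcdhb10 in any library was 0.588 CPM, for Pcdhb6 in EpiSC_AF replicate 2. Pcdha4 has only 494 bases of its own, the least of any alpha member, and no member's absence is shown at this depth.

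**Figure D2:**
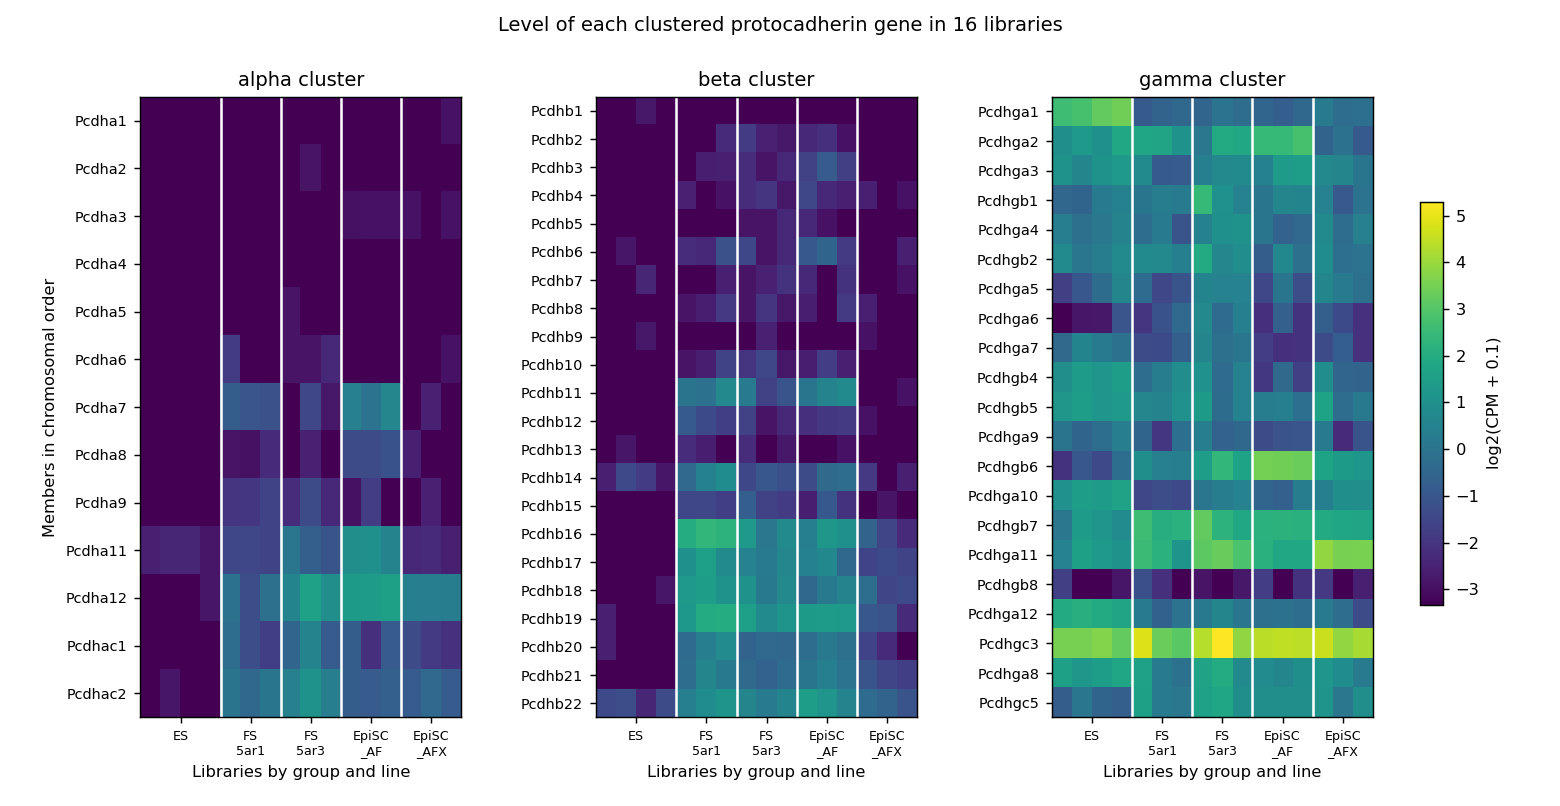
Level of all 56 members, as log2 of CPM + 0.1, with genes of each cluster in chromosomal order from top to bottom and the 16 libraries in columns, white lines dividing groups and FS lines. Outside ES the strongest signal of the alpha and beta clusters is in the lower lines of each block, while the gamma cluster has signal in every group.

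Between FS and ES, 23 of the 56 members were called at an adjusted p under 0.05 by edgeR's quasi-likelihood test. Of these, 20 were higher and 3 lower in FS. The 23 were 67.6% of the 34 members tested, near the background of 62.8% of all 18555 tested genes (32.9% higher and 29.9% lower). The calls comprised 5 alpha members and 9 beta members, all higher, and 9 gamma members, 6 higher and 3 lower. A further 22 members did not pass the filter and were not tested. Between EpiSC_AFX and ES, 17 of the 34 members tested were called, 13 higher and 4 lower in EpiSC_AFX. This was a smaller share than the 54.7% of all genes (28.5% and 26.2%). The 17 were 3 alpha and 6 beta members, all higher, and 4 gamma members in each direction. Between EpiSC_AF and ES, 25 were called, 19 higher and 6 lower in EpiSC_AF. This was 73.5% of the 34 tested, against 56.7% of all genes (29.7% and 27.0%). The called members were 5 alpha and 9 beta members, all higher, with 5 gamma members higher and 6 lower. Of the 20 gamma members tested, 9 were called in FS, 8 in EpiSC_AFX and 11 in EpiSC_AF. Each was a smaller share than that of all genes in the same comparison. The 3 comparisons share the ES libraries. A member that passed the filter only through libraries where it is high was favoured to differ from ES in those groups. These counts therefore describe the members and support nothing further. In EpiSC_AFX, 2 of the 5 alpha and 3 of the 9 beta members that passed were not called.

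Pcdha12, the last variable exon before the C-type genes, was the highest alpha member in the libraries of line 5ar3, EpiSC_AFX and EpiSC_AF. In the 3 libraries of line 5ar1 Pcdhac2 was highest, and over the ES libraries together Pcdha11. The level of Pcdha12 was 0, 0, 0 and 0.0425 CPM in the 4 ES libraries, the last being 1 count. In FS it was 0.852, 0.319 and 0.812 CPM in line 5ar1 and 1.37, 2.95 and 1.84 CPM in line 5ar3. It was 1.21, 1.18 and 1.118 CPM in EpiSC_AFX and 2.51, 2.55 and 2.90 CPM in EpiSC_AF. The EpiSC_AF libraries lay above those of EpiSC_AFX, and FS overlapped both. Against the single count in ES, the FS count was 107 times higher per unit of depth (95% interval 19.0 to 4248, counting error only; adjusted p = 4.69e-06, edgeR's quasi-likelihood test), that of EpiSC_AFX 96.1 times (16.9 to 3831; adjusted p = 1.92e-05) and that of EpiSC_AF 217 times (38.6 to 8612; adjusted p = 1.56e-06).

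The C-type alpha genes were read in all 12 libraries outside ES. Pcdhac2 was at 0.889, 0.637 and 0.914 CPM in line 5ar1, at 1.26, 2.02 and 1.18 CPM in line 5ar3, at 0.472, 0.678 and 0.474 CPM in EpiSC_AFX and at 0.482, 0.457 and 0.531 CPM in EpiSC_AF, with 1 count in the ES libraries together. The count in FS was 92.9 times that of ES per unit of depth (16.5 to 3690; adjusted p = 3.61e-07). The libraries of FS and EpiSC_AF did not overlap (log2 difference 1.22 ± 0.417, SE), and the adjusted p of 0.0540 missed the threshold. By edgeR's quasi-likelihood test it was 0.0323 with 1 mean per FS line (1.16) and 0.012 with line 5ar3 alone (1.60). With 1 library left out it ran from 0.0368 to 0.168. Over the other alternatives, with edgeR or DESeq2's Wald test, it ran from 0.012 to 0.255. Pcdhac1 had no count in ES. Its FS mean of 0.617 ± 0.413 CPM (SD, n = 6) lay at least 4.07-fold above the floor of 3 counts per ES library (adjusted p = 0.000101). It was at 0.206 ± 0.0872 CPM in EpiSC_AFX and 0.357 ± 0.197 in EpiSC_AF (SD, n = 3 each), at least 1.36-fold (adjusted p = 0.00404) and at least 2.36-fold (adjusted p = 0.000878) above that floor.

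Pcdha7 and Pcdha11, which encode variable alpha isoforms, were highest in EpiSC_AF. Pcdha7 was at 1.25, 0.882 and 1.49 CPM in EpiSC_AF, at 0.482, 0.382 and 0.338 CPM in line 5ar1, at 0, 0.258 and 0.0471 CPM in line 5ar3 and at 0, 0.0714 and 0 CPM in EpiSC_AFX. ES had no count. Pcdha11 was at 1.83, 1.93 and 1.34 CPM in EpiSC_AF, at 0.237 to 0.951 CPM in FS, at 0.0678 to 0.107 CPM in EpiSC_AFX and at 0.0425 to 0.0911 CPM in ES. For both genes every EpiSC_AF library lay above all others.

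Pcdhb16 and Pcdhb19 had the highest mean over all 16 libraries among beta members, but the leading gene differed by group. In EpiSC_AFX Pcdhb22 (0.551 CPM) and Pcdhb18 (0.432) exceeded both, in EpiSC_AF Pcdhb22 (2.08) exceeded Pcdhb16 (1.81), and in ES Pcdhb22 had the highest mean (0.245). Pcdhb16 was at 3.96, 5.16 and 4.64 CPM in line 5ar1 and at 2.40, 0.957 and 1.65 CPM in line 5ar3. It was at 1.22, 2.29 and 1.91 CPM in EpiSC_AF, at 0.573, 0.250 and 0.102 CPM in EpiSC_AFX and at 0 in all ES libraries. Line 5ar1 thus lay above every other library, and the lowest FS library lay above EpiSC_AFX. The FS mean was at least 20.6-fold above the floor of 3 counts per ES library (adjusted p = 3.15e-06), that of EpiSC_AF at least 11.9-fold (adjusted p = 2.25e-05) and that of EpiSC_AFX at least 2.03-fold (adjusted p = 0.00250). Pcdhb19 was at 1.62 to 3.96 CPM in FS, 2.37 to 2.65 CPM in EpiSC_AF and 0.102 to 0.405 CPM in EpiSC_AFX, with 1 count in ES. The count in FS was 234 times that of ES per unit of depth (41.8 to 9255; adjusted p = 5.25e-08).

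The other beta members described next were also lower in EpiSC_AFX than in FS, and FS and EpiSC_AF did not keep 1 order. Pcdhb17 was at 1.72 ± 0.607 CPM in FS (SD, n = 6), 1.15 ± 0.464 in EpiSC_AF and 0.253 ± 0.0283 in EpiSC_AFX (SD, n = 3 each), with no count in ES. It was at least 11.3-fold above the ES floor in FS (adjusted p = 2.00e-07). Pcdhb11 was at 0.221 to 1.56 CPM in FS, 0.932 to 1.59 CPM in EpiSC_AF, 0 in ES and 1 count in the EpiSC_AFX libraries together. Pcdhb21 had no count in ES and was at least 5.67-fold above the floor in FS (adjusted p = 9.51e-07). Pcdhb22, the last beta gene, was the beta member most often counted in ES, at 0.0911 to 0.316 CPM. It stood at 1.48 ± 0.373 CPM in FS (log2 change from ES 2.58 ± 0.384, SE; adjusted p = 1.59e-05), at 2.08 ± 0.697 in EpiSC_AF (3.07 ± 0.416; adjusted p = 7.92e-06) and at 0.551 ± 0.169 in EpiSC_AFX (1.16 ± 0.438; adjusted p = 0.0331). The call for EpiSC_AFX was lost without EpiSC_AFX replicate 1 (log2 change 0.93), EpiSC_AFX replicate 2 (1.13) or ES replicate 3 (0.87).

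Members of the gamma cluster changed from ES in both directions. Pcdhga1, the first gene of the cluster, fell most. It was at 6.08, 6.77, 9.29 and 10.7 CPM in the ES libraries and at 0.444 to 0.884 CPM in FS, 0.490 to 0.637 CPM in EpiSC_AF and 0.749 to 1.05 CPM in EpiSC_AFX. No library of another group came near ES. The level in ES was 12.6-fold that of FS (log2 change of FS from ES -3.65 ± 0.244, SE; adjusted p = 9.76e-10), 14.1-fold that of EpiSC_AF (adjusted p = 3.19e-08) and 9.52-fold that of EpiSC_AFX (adjusted p = 1.44e-07). In these comparisons edgeR's quasi-likelihood test gave an adjusted p between 2.13e-09 and 1.17e-08 for FS when each library was left out in turn.

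Pcdhga12, the last A-type gamma gene, was also higher in ES. It was at 3.73, 4.20, 3.78 and 3.14 CPM there and at 0.983 ± 0.291 CPM in FS (SD, n = 6), 0.798 ± 0.0534 in EpiSC_AF and 0.700 ± 0.373 in EpiSC_AFX (SD, n = 3 each). Its log2 change from ES was -1.91 ± 0.299 (SE) in FS (adjusted p = 2.69e-05), -2.21 ± 0.382 in EpiSC_AF (adjusted p = 0.000100) and -2.40 ± 0.387 in EpiSC_AFX (adjusted p = 5.24e-05). Pcdhga10 averaged 2.58 ± 0.458 CPM in the ES libraries (SD, n = 4) and fell in FS (log2 change -1.88 ± 0.431, SE; adjusted p = 0.00109) and EpiSC_AF (-1.75 ± 0.534; adjusted p = 0.00996). The antisense gene Gm26672 over its variable exon moved with it, at 1.62 ± 0.664 CPM in ES, 0.287 ± 0.238 in FS and 0.230 ± 0.110 in EpiSC_AF, and its part in these values was not tested.

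Pcdhgb6 rose most among gamma members. It was at 0.138, 0.406, 0.273 and 0.765 CPM in ES, at 1.18 to 5.08 CPM in FS, at 2.20 to 3.07 CPM in EpiSC_AFX and at 11.2, 10.6 and 9.90 CPM in EpiSC_AF. Every library outside ES lay above every ES library, and EpiSC_AF above all others. Its log2 change from ES was 2.60 ± 0.465 (SE) in FS (adjusted p = 0.000110), 2.64 ± 0.506 in EpiSC_AFX (adjusted p = 0.000288) and 4.67 ± 0.515 in EpiSC_AF (adjusted p = 7.47e-07). Pcdhga6 rose in FS, from 0.118 ± 0.177 CPM in ES (SD, n = 4) to 0.776 ± 0.530 (SD, n = 6; log2 change 2.54 ± 0.810, SE; adjusted p = 0.0115), with overlap between the libraries. Of the 11 ES counts 9 were in ES replicate 4, without which the log2 change was 4.33, and the call was lost with line 5ar1 alone (1.57; adjusted p = 0.119).

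Pcdhga11 was at 1.31, 2.89, 2.37 and 2.00 CPM in ES, at 5.78, 4.40 and 2.098 CPM in line 5ar1, at 8.56, 9.83 and 7.11 CPM in line 5ar3, at 4.37, 3.40 and 3.50 CPM in EpiSC_AF and at 14.9, 11.5 and 11.7 CPM in EpiSC_AFX. EpiSC_AFX lay above every other library. Pcdhga11 rose over ES in FS (log2 change 1.54 ± 0.346, SE; adjusted p = 0.000906) and EpiSC_AFX (2.55 ± 0.390; adjusted p = 2.97e-05). The change in EpiSC_AF was 0.80 ± 0.389 (adjusted p = 0.0903). By edgeR's quasi-likelihood test its adjusted p was 0.0345 with 1 mean per FS line and 0.0496 with total counts. With 1 library left out it ran from 0.0668 to 0.22. Pcdhga2 moved in opposite directions in the EpiSC groups. It was at 2.40 ± 0.713 CPM in ES (SD, n = 4), 5.85 ± 0.876 in EpiSC_AF (log2 change 1.28 ± 0.375, SE; adjusted p = 0.00793) and 0.623 ± 0.213 in EpiSC_AFX (-1.95 ± 0.425; adjusted p = 0.000895; SD, n = 3 each).

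The C-type gamma gene Pcdhgc3 had the highest level per length of any gamma member in every group. Its mean was 3.32 CPM per kilobase of its own exon in ES, 5.93 in FS, 5.61 in EpiSC_AFX and 6.40 in EpiSC_AF. In CPM it was at 11.4, 11.4, 12.7 and 9.35 in ES, 21.2, 22.2 and 21.5 in EpiSC_AF and 24.2, 14.95 and 17.7 in EpiSC_AFX. FS libraries spread from 8.53 to 38.8 CPM with a median of 17.2. The log2 change from ES was 0.84 ± 0.338 (SE) in FS (adjusted p = 0.0394) and 0.95 ± 0.386 in EpiSC_AF (adjusted p = 0.0455). The FS call was lost without FS replicate 1, 4 or 5 or without any single ES library (log2 change 0.54 to 0.90 in those fits), and the EpiSC_AF call without any single library of either group (0.86 to 1.007). The FS call was also lost with line 5ar1 alone (0.48; adjusted p = 0.276, edgeR's quasi-likelihood test). With no low-count filter, the same test called neither FS (0.86; adjusted p = 0.0611) nor EpiSC_AF (0.99; adjusted p = 0.0672).

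Pcdhgc5, also C-type, averaged 0.633 ± 0.215 CPM over the ES libraries (SD, n = 4) and 2.17 ± 0.984 in FS (SD, n = 6), without overlap (log2 change 1.76 ± 0.394, SE; adjusted p = 0.000893). It rose in EpiSC_AF (1.50 ± 0.439; adjusted p = 0.00772) and in EpiSC_AFX (1.35 ± 0.441; adjusted p = 0.0158), the latter call being lost without EpiSC_AFX replicate 1 (log2 change 1.12). The row named Pcdhga8, which may be Pcdhgc4, was at 2.80 ± 0.420 CPM in ES and 2.23 ± 1.19 in FS (SD, n = 4 and 6) and was called in none of the 7 comparisons.

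**Figure D3:**
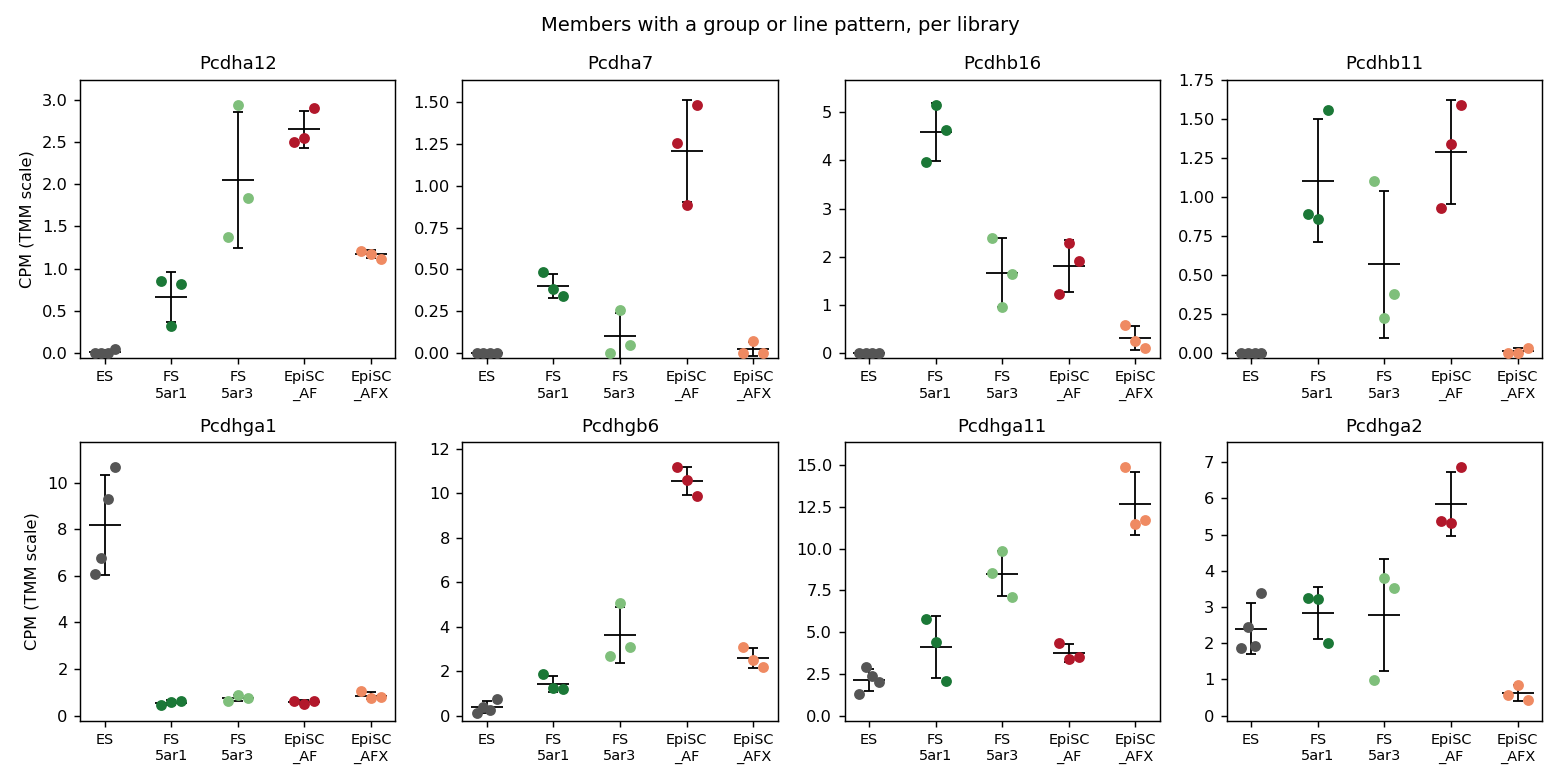
CPM (TMM scale) of 8 members in each library, with FS shown by line; points are libraries, the long tick is the mean and the bar the SD. Pcdhga1 is high in ES alone, Pcdhgb6 and Pcdha7 are highest in EpiSC_AF, Pcdhga11 is highest in EpiSC_AFX, and Pcdhb16 is highest in line 5ar1.

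Set by level per length, the leading gamma genes after Pcdhgc3 differed by group. In ES the next was Pcdhga1 at 2.53 CPM per kilobase, in FS Pcdhga11 at 2.39, in EpiSC_AFX Pcdhga11 at 4.81 and in EpiSC_AF Pcdhgb6 at 4.12. The FS order held for line 5ar3 and not for line 5ar1, where Pcdhgb7 at 1.85 came before Pcdhga11 at 1.55. This order in line 5ar1 depends on the length used. With opposite-strand bases left out (1823 for Pcdhgb7 and 1256 for Pcdhga11) and the same counts, Pcdhga11 would come first of the pair. As shares of the gamma counts, Pcdhgc3 took 23.3% ± 4.11 in ES (SD, n = 4), 34.0% ± 9.27 in FS (SD, n = 6), 34.9% ± 2.14 in EpiSC_AFX and 36.2% ± 0.352 in EpiSC_AF (SD, n = 3 each). Pcdhga1 took 16.7% ± 2.90 in ES, Pcdhga11 took 23.7% ± 1.80 in EpiSC_AFX and Pcdhgb6 took 17.7% ± 1.42 in EpiSC_AF. The effective number of gamma members, the exponential of the Shannon entropy of these shares, was 12.8 ± 0.914 in ES, 10.9 ± 2.25 in FS, 8.92 ± 0.641 in EpiSC_AFX and 8.70 ± 0.389 in EpiSC_AF.

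**Figure D4:**
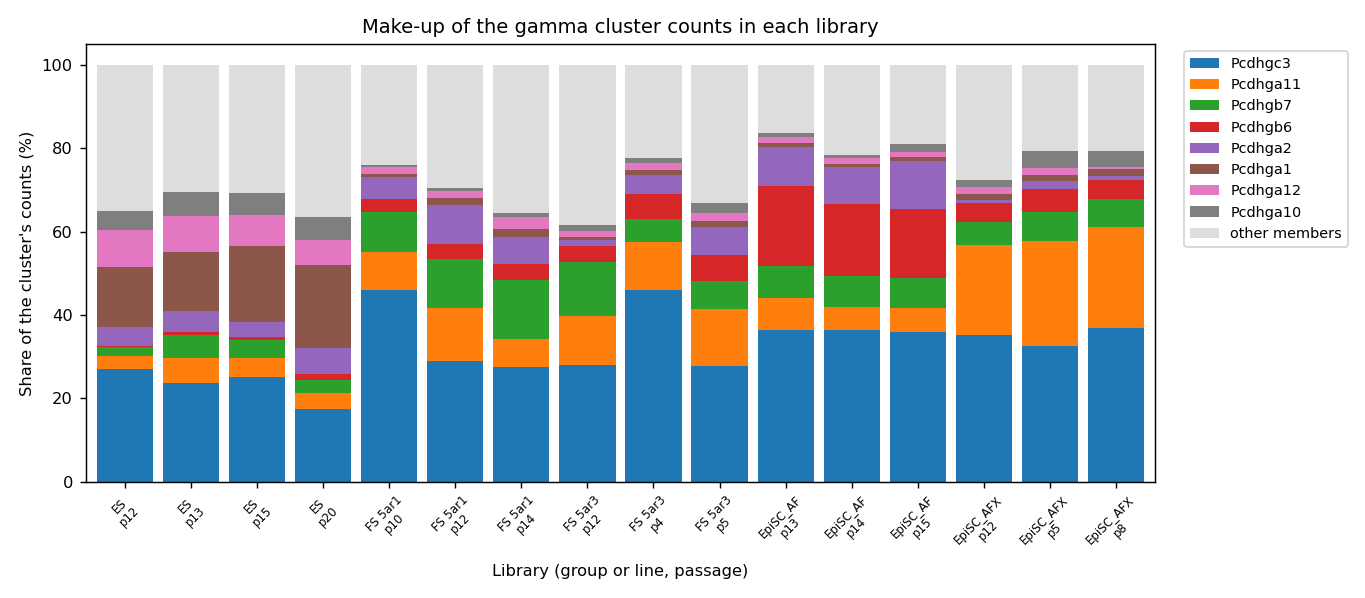
Share of the gamma cluster's counts taken by 8 members in each library, in percent, labelled with group or line and passage; the grey part is the sum of the other 13 members. Pcdhga1 and Pcdhga12 are wide in the ES bars, Pcdhgb6 in EpiSC_AF, Pcdhga11 in EpiSC_AFX, and Pcdhgc3 is the widest named part in every bar but ES passage 20, where Pcdhga1 is wider.

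The gamma profile was similar between libraries of a line. Pearson's r over the 21 gamma genes, in log2 of CPM + 0.1, had a median of 0.906 over 18 pairs from the same line and 0.824 between the FS lines. The medians were 0.772 to 0.806 between FS, EpiSC_AF and EpiSC_AFX and 0.430 to 0.542 between ES and them. Single pairs ran from 0.785 to 0.976 within a line and from 0.620 to 0.903 between FS, EpiSC_AF and EpiSC_AFX, so these overlapped. Pairs of ES with another group ran from 0.264 to 0.645. These are descriptions across genes of 1 locus that share libraries and depth.

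The cultures other than ES were then compared with each other. Between FS and EpiSC_AFX, 11 of the 56 members were called by edgeR's quasi-likelihood test, all higher in FS. This was 32.4% of the 34 tested, against 5.00% of all genes (2.89% higher and 2.10% lower). The called members were 9 of the 22 beta members, Pcdha11 and Pcdhga2. With 1 mean per FS line, or with line 5ar1 alone, the calls were not all higher: 2 gamma members, Pcdhga10 (log2 change -1.51 and -2.51) and Pcdhga11 (-1.10 and -1.63), were then called lower in FS. The 9 beta members that passed the filter differed by 1.42 to 5.70 on the log2 scale. Since they could pass it through FS and EpiSC_AF, where they are high, their number supports nothing further here or in the comparison of the EpiSC groups. Pcdhb19 was higher by 3.26 ± 0.480 (SE; adjusted p = 0.000692), Pcdhb16 by 3.32 ± 0.645 (adjusted p = 0.00850) and Pcdhb14 by 3.23 ± 0.837 (adjusted p = 0.0331). Pcdhb11 gave 75.1 times the single EpiSC_AFX count per unit of depth (13.3 to 2986; adjusted p = 0.00310). Pcdhga2, at 2.80 ± 1.08 CPM in FS (SD, n = 6), was higher by 2.16 ± 0.406 (SE; adjusted p = 0.00485).

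The size of this set rested on few EpiSC_AFX libraries. Without EpiSC_AFX replicate 2, or without replicate 3, 4 members were called, of which 3 were beta members, and Pcdhb16 (log2 change 3.20 and 2.90) and Pcdhb14 (2.69 and 3.11) were no longer called. Pcdhb14 was also not called without FS replicate 2 (3.02). With line 5ar1 alone 9 beta members were called and with line 5ar3 alone 6. The summed neural markers were 384 to 640 CPM in FS and 492 to 859 CPM in EpiSC_AFX, with 4 of the 12 called higher and 1 lower in FS, and their part was not tested.

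**Figure D5:**
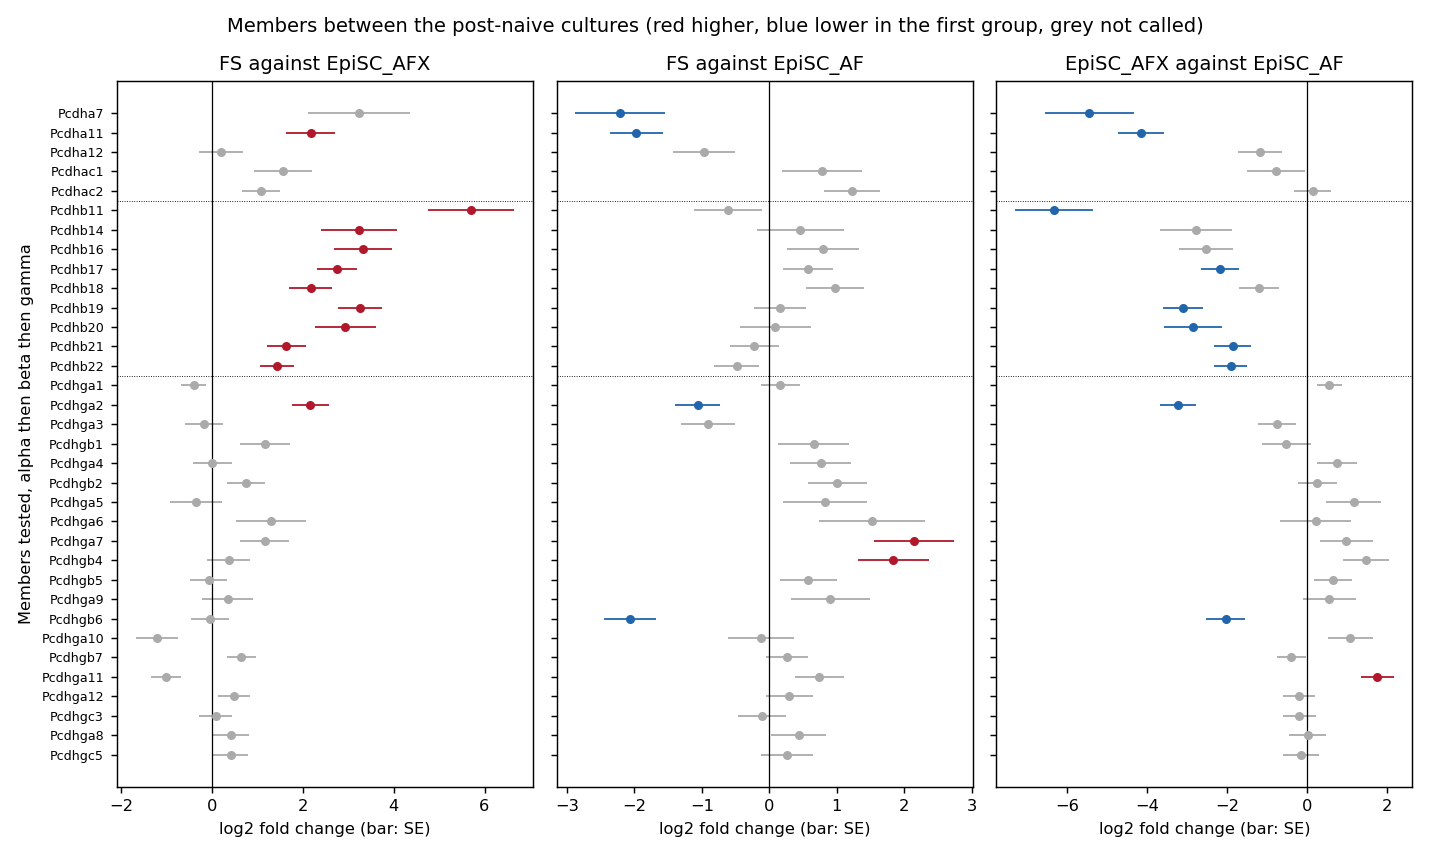
Log2 fold change of the 34 members tested in the comparisons of FS with EpiSC_AFX, FS with EpiSC_AF and EpiSC_AFX with EpiSC_AF, with bars for the SE, and dotted lines dividing the alpha, beta and gamma clusters. Red and blue points passed an adjusted p of 0.05 as higher or lower in the first group. The beta block is red against EpiSC_AFX, grey between FS and EpiSC_AF, and mostly blue between EpiSC_AFX and EpiSC_AF.

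Between FS and EpiSC_AF, 6 members were called, 2 higher and 4 lower in FS. This was 17.6% of the 34 tested, near the 16.6% of all genes (7.84% and 8.81%). No beta member was called: of 9 tested, 1 had an unadjusted p under 0.05, and DESeq2's Wald test called 0 of the 16 it tested. In the alpha cluster, Pcdha7 (log2 change -2.21 ± 0.663, SE; adjusted p = 0.0343) and Pcdha11 (-1.97 ± 0.392; adjusted p = 0.00204) were lower in FS. In the gamma cluster Pcdhgb6 (-2.07 ± 0.392; adjusted p = 0.00142) and Pcdhga2 (-1.06 ± 0.336; adjusted p = 0.0378) were lower, and Pcdhga7 (2.15 ± 0.588; adjusted p = 0.0182) and Pcdhgb4 (1.84 ± 0.529; adjusted p = 0.0236) were higher. Pcdhga7 was at 0.155 ± 0.0332 CPM in EpiSC_AF and Pcdhgb4 at 0.353 ± 0.290 (SD, n = 3 each), against 0.708 ± 0.434 and 1.28 ± 0.529 in FS (SD, n = 6 each). In ES these genes were at 1.01 ± 0.309 and 2.31 ± 0.406 CPM (SD, n = 4 each), and both were called lower in EpiSC_AF than in ES.

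The calls of Pcdha11 and Pcdhgb6 held with each library left out, and the other 4 did not. Without EpiSC_AF replicate 1, or without replicate 3, 2 members were called, and without replicate 2 there were 3. The log2 change of Pcdha7 was -2.18, -2.39 and -2.04 without EpiSC_AF replicates 1, 2 and 3, and -2.03 without FS replicate 6. That of Pcdhga7 was 2.33, 2.04 and 2.09 without EpiSC_AF replicates 1, 2 and 3. That of Pcdhgb4 was 1.49 and 1.59 without EpiSC_AF replicates 1 and 3. Pcdhga2 was not called without any single EpiSC_AF library (-1.12, -1.13 and -0.93) or without FS replicate 2 (-1.11) or 3 (-0.98). In all of these fits the direction stayed and the call was lost. With line 5ar1 alone Pcdha7 (-1.58), Pcdhga7 (1.20) and Pcdhga2 (-1.05) were not called, nor was Pcdhga2 with line 5ar3 alone (-1.08), and with total counts Pcdha7 (-2.11) and Pcdhga2 (-0.99) were not called. The fibroblast and mesendoderm markers were higher in EpiSC_AF (32.2 to 78.9 against 7.45 to 15.9 CPM, and 185 to 425 against 16.2 to 51.5 CPM), and their part was not tested.

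Between EpiSC_AFX and EpiSC_AF, 11 members were called, 1 higher and 10 lower in EpiSC_AFX. This was 32.4% of the 34 tested, against 4.26% of all genes (1.43% and 2.83%). The lower members were Pcdha7, Pcdha11, 6 beta members, Pcdhga2 and Pcdhgb6, and the higher member was Pcdhga11. Pcdhb19 differed by -3.10 ± 0.508 on the log2 scale (SE; adjusted p = 0.00164) and Pcdhb17 by -2.17 ± 0.474 (adjusted p = 0.0179). Pcdhb20, at 0.114 ± 0.118 and 0.855 ± 0.141 CPM (SD, n = 3 each), differed by -2.85 ± 0.727 (SE; adjusted p = 0.0323). Pcdha11 differed by -4.14 ± 0.571 (adjusted p = 0.000346) and Pcdhga2 by -3.22 ± 0.449 (adjusted p = 0.000364). Pcdhb11 was 111 times higher in EpiSC_AF per unit of depth than the single EpiSC_AFX count (19.6 to 4438; adjusted p = 0.00179), and Pcdha7 52.3 times higher than the 2 EpiSC_AFX counts (14.1 to 437; adjusted p = 0.0122). Pcdhgb6 differed by -2.03 ± 0.487 (adjusted p = 0.0229) and Pcdhga11 by 1.75 ± 0.412 (adjusted p = 0.0203).

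Single libraries decided several of these calls. The count fell to 5 without EpiSC_AF replicate 1 or without EpiSC_AFX replicate 2 or 3, and to 6 without EpiSC_AF replicate 2. Pcdhga11 lost its call without any 1 of the 6 libraries (log2 change 1.63 to 1.88), and Pcdhgb6 (-2.07 to -1.93) and Pcdhb20 (-2.94 to -2.28) lost theirs without any library except EpiSC_AFX replicate 1. Pcdhb17 lost its call without EpiSC_AF replicate 1 (-2.08) or 2 (-1.91) or EpiSC_AFX replicate 2 (-2.26) or 3 (-2.13), and Pcdha7 without EpiSC_AFX replicate 3 (-4.93). The calls of Pcdha11, Pcdhb11, Pcdhb19 and Pcdhga2 held in all 6 of these fits.

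The FS lines shared their medium, so they allow a comparison of lines within 1 culture. Of the 56 members 3 were called by edgeR's quasi-likelihood test, all lower in line 5ar1. This was 8.82% of the 34 tested, against 3.88% of all genes (1.86% and 2.02%). Pcdha12 was at 0.661 ± 0.297 CPM in line 5ar1 and 2.05 ± 0.810 in line 5ar3 (SD, n = 3 each; log2 difference -1.64 ± 0.411, SE; adjusted p = 0.0339). Pcdhga10 was at 0.259, 0.319 and 0.271 CPM in line 5ar1 and 0.951, 1.14 and 1.32 CPM in line 5ar3 (-1.98 ± 0.382; adjusted p = 0.00689). Pcdhgb6 was at 1.85, 1.24 and 1.18 CPM against 2.70, 5.08 and 3.11 CPM (-1.35 ± 0.363; adjusted p = 0.0472). The libraries of the lines did not overlap for any of the 3 genes.

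Only Pcdhga10 kept its call with each FS library left out. Without FS replicate 2, 3, 5 or 6, 1 member was called, and without FS replicate 1 there were 9. Pcdha12 was then at a log2 difference of -1.31, -1.82, -1.28 and -1.72, and Pcdhgb6 at -1.27, -1.23, -1.03 and -1.46, without FS replicates 2, 3, 5 and 6. With passage as a covariate the differences of Pcdha12 (-1.40) and Pcdhgb6 (-1.41) were not called.

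No beta member was called between the lines, although their sums did not overlap. The summed beta level was 19.9 ± 3.42 CPM in line 5ar1 and 11.4 ± 2.83 in line 5ar3 (SD, n = 3 each). Pcdhb16, at 4.59 ± 0.600 against 1.67 ± 0.720 CPM, differed by 1.46 ± 0.456 on the log2 scale (SE; adjusted p = 0.102), and Pcdhb14, at 1.22 ± 0.531 against 0.334 ± 0.0695 CPM, by 1.86 ± 0.611 (adjusted p = 0.109). Of the 9 beta members tested, 2 had an unadjusted p under 0.05, and DESeq2's Wald test called 1 of 10. FS replicate 4, of line 5ar3, stood apart for Pcdhgb1 at 5.40 CPM, against 0.926 to 1.95 CPM in the other FS libraries, and for Pcdhgb2 at 3.77 CPM against 1.22 to 1.79 CPM.

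Other genes of the family and its surroundings were read from the same fit. Of 12 non-clustered protocadherins, which are cadherin-like proteins encoded outside the clusters, 10 were tested. Against ES, 9 rose and 1 fell in FS, where 62.8% of all genes were called. The median log2 change was 6.16 against 0.04 over all genes. Of the 10, 7 had at most 3 counts in the ES libraries together, and with those set against 3 counts per ES library the median was 3.61. Pcdh7 averaged 31.6 ± 7.45 CPM over the FS libraries (SD, n = 6) and had 3 counts in ES, a ratio per unit of depth of 857 (293 to 4155; adjusted p = 1.38e-09, edgeR's quasi-likelihood test). Pcdh18 was at 19.2 ± 7.34 and 0.0871 ± 0.0914 CPM (log2 change 7.57 ± 0.465; adjusted p = 3.27e-10), and Pcdh19 was the gene that fell (-1.49 ± 0.492; adjusted p = 0.0143). Between FS and EpiSC_AFX 4 were higher in FS, Pcdh7, Pcdh9, Pcdh15 and Pcdh18, and between EpiSC_AFX and EpiSC_AF 3 were lower in EpiSC_AFX, Pcdh7, Pcdh11x and Pcdh18. Pcdh11x alone was called between FS and EpiSC_AF, at 2.55 ± 0.995 and 13.3 ± 4.91 CPM (-2.38 ± 0.371; adjusted p = 0.000286).

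Of 12 classical cadherins and catenins, the adhesion receptors of epithelia and their cytoplasmic linkers, 6 rose and 4 fell in FS against ES, where 62.8% of all genes were called. Cdh2, or N-cadherin, was at 1.58 ± 0.656 CPM in ES and 41.8 ± 22.2 in FS (log2 change 4.69 ± 0.484, SE; adjusted p = 2.30e-07). Of these genes 3 were called between FS and EpiSC_AFX (5.00% of all genes), 3 between FS and EpiSC_AF (16.6%) and 5 between the FS lines (3.88%), where Cdh2, Cdh6 and Cdh11 were lower and Cdh1 and Jup higher in 5ar1.

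Genes for chromatin looping and for silencing, which are known to act on these clusters, were read next. Of 11 looping genes, Stag2 rose and Rad21, Stag1 and Wapl fell in FS against ES (36.4% called, against 62.8% of all genes), and edgeR called 0 of 11 between FS and EpiSC_AFX, between FS and EpiSC_AF and between the EpiSC groups. In these comparisons 1, 0 and 1 had an unadjusted p under 0.05, and DESeq2's Wald test called 1, 0 and 0. Ctcf was at 122 ± 16.3 CPM in FS and 141 ± 50.4 in ES (log2 change -0.21 ± 0.191, SE; adjusted p = 0.351). Of 17 silencing and DNA methylation genes, 8 rose and 7 fell in FS against ES, beside 32.9% and 29.9% of all genes. Dnmt3b, a de novo DNA methyltransferase, was at 1307 ± 527 CPM in FS and 60.7 ± 23.0 in ES (4.43 ± 0.356; adjusted p = 9.67e-09), Dnmt3a at 151 ± 25.3 and 11.5 ± 2.20 (3.71 ± 0.183; adjusted p = 2.19e-11), and Smchd1, a silencer of clustered genes, at 247 ± 30.5 and 128 ± 11.9 (0.95 ± 0.111; adjusted p = 1.11e-06). EdgeR called 0 of 17 between FS and EpiSC_AFX (2 at an unadjusted p under 0.05, 1 by DESeq2) and 0 between the EpiSC groups (1 at an unadjusted p under 0.05, 0 by DESeq2). Ehmt2, a histone methyltransferase, was called between FS and EpiSC_AF (0.86 ± 0.180; adjusted p = 0.00313).

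Genes flanking or lying between the clusters were read as neighbours. Of 14 such genes, 5 rose and 3 fell in FS against ES (57.1% called, near the 62.8% of all genes), and 2 were called between FS and EpiSC_AF (14.3%, near 16.6%). EdgeR called 0 between FS and EpiSC_AFX (2 at an unadjusted p under 0.05, 1 by DESeq2) and 0 between the EpiSC groups (1 at an unadjusted p under 0.05, 0 by DESeq2). Among those lower in FS than in ES were Taf7, a subunit of the general transcription factor complex, at 79.4 ± 27.2 against 197 ± 45.8 CPM (log2 change -1.31 ± 0.213, SE; adjusted p = 4.09e-05), and Slc25a2 at 0.628 ± 0.146 against 1.49 ± 0.429 CPM (-1.25 ± 0.284; adjusted p = 0.000981). Over 421 other tested genes of chromosome 18 the median log2 change was -0.03 from ES to FS and -0.02 from EpiSC_AFX to FS. Of 12 intracellular partners, such as the kinases and actin regulators bound by the cytoplasmic domains, 6 rose and 4 fell in FS against ES, beside 62.8% of all genes called. Between FS and EpiSC_AFX, where 5.00% of all genes were called, 0 were called by edgeR or DESeq2, and 0 had an unadjusted p under 0.05.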

How the data were processed

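Total RNA was made into directional libraries, per the labels' protocols. The authors deposited raw counts per gene. Per the submitters' processing notes, Trim Galore, TopHat2 2.1.0 and featureCounts 1.5.0 were used with mm10; annotation release, strand and multi-overlap settings are not given in the sources used here. A further 6 columns matched no sample and were not used.

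All 34042 genes entered a fit in edgeR 4.0.16 (R 4.3.3): filterByExpr by group, TMM, robust quasi-likelihood fit to 16 libraries with 1 mean per group (per line for the FS lines), Benjamini-Hochberg adjustment over 18555 genes, called under 0.05. The SE is the log2 change divided by the square root of F. Folds against a group at 0 use 3 counts per library; ratios against 1 to 3 counts have exact binomial 95% intervals, counting error only. GENCODE M21 gave positions and lengths. Members and lists were chosen with earlier results of these data known. Named were the C-type members, the 2 highest members per cluster and, per comparison and cluster, up to 4 called members of at least 0.5 CPM with the largest change, and up to 4 called genes per list, with Smchd1, Ctcf, Dnmt3a and Dnmt3b; Pcdha4, Pcdhb6, Pcdhgb1, Pcdhgb2, the Pcdhga8 row, Gm26672 and uncalled differences were chosen after their values were seen. Alternatives were DESeq2 1.42.0 (size factors, Wald test), total counts, other filters, single FS lines, passage and leaving out each library. The fit was tested on simulated counts.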

Additional observations from a re-analysis of the deposited data

Results flagged for a closer look

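The effect against ES differed between the FS lines for 3 members, by edgeR's quasi-likelihood test of the line difference, which is the difference of the effects because both lines are set against the same ES libraries. Pcdha12 was lower in line 5ar1 than in line 5ar3 by 1.64 on the log2 scale (value -1.64), with every library of 5ar1 below every library of 5ar3. Pcdhga10 differed by -1.98 and Pcdhgb6 by -1.35, also without overlap of the libraries. This is the comparison of lines given above, where only Pcdhga10 kept its call with each FS library left out. Pcdha12 and Pcdhgb6 also lost their calls with passage as a covariate and with total counts (-1.57 and -1.29). The lines differ in the passages sampled, and the part of passage was not separated from line. Of 39 groups of 4 or more libraries checked for a library far from the rest, 0 were marked, where chance marks about 1 in 20. Groups of 3 libraries were not checked. FS replicate 4 for Pcdhgb1 and Pcdhgb2 and ES replicate 4 for Pcdhga6, described above, were not marked. The absence of marks thus does not mean that no library stood apart.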

How the results depend on the processing

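Depth limits the alpha and beta members in ES and the beta members in EpiSC_AFX, where counts per library were few. With a required mean of at least 1 CPM, which leaves 21 members tested, the members called were 13 for FS against ES, 15 for EpiSC_AF against ES, 5 for FS against EpiSC_AFX, 3 for FS against EpiSC_AF and 5 for EpiSC_AFX against EpiSC_AF. For the FS lines, total counts gave 1 and DESeq2's Wald test 6. Leaving out 1 library gave 22 to 24 (FS against ES), 15 to 17 (EpiSC_AFX against ES), 22 to 24 (EpiSC_AF against ES), 4 to 12 (FS against EpiSC_AFX), 2 to 7 (FS against EpiSC_AF), 5 to 11 (EpiSC_AFX against EpiSC_AF) and 1 to 9 (FS lines). DESeq2's Wald test gave 29, 19 and 32 against ES in FS, EpiSC_AFX and EpiSC_AF. With total counts the summed gamma level was 61.79 CPM in EpiSC_AF and 42.3 in ES.

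Mean members detected at 3 or more counts, then at 30 or more, were: alpha 5.83 and 1 in FS, 3.67 and 1 in EpiSC_AFX, 6.33 and 2.67 in EpiSC_AF; beta 13.5 and 5.33 in FS, 7 and 0 in EpiSC_AFX, 15.7 and 5.67 in EpiSC_AF, and 1.25 at 3 counts in ES; gamma 20.33 and 11.8 in FS, 20.33 and 11.3 in EpiSC_AFX, 20.67 and 10 in EpiSC_AF, and 19.25 and 10.75 in ES.

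Of the single members, 15 values changed sign, none of them called; the cause was not tested. In FS against EpiSC_AFX, Pcdhgc3 gave -0.28 with line 5ar1 alone, -0.04 and -0.22 without FS replicates 1 and 5, and -0.07 without EpiSC_AFX replicate 2 (-0.22 to 0.30 with 1 library left out). Pcdha12 gave -0.0086 with 1 mean per line, -0.83 with line 5ar1 alone and -0.19 without FS replicate 5 (-0.19 to 0.42). In FS against EpiSC_AF, Pcdhgc3 gave 0.18 with line 5ar3 alone and 0.04 and 0.056 without FS replicates 2 and 3 (-0.41 to 0.056); Pcdhgc5 gave -0.13 with line 5ar1 alone, and Pcdhb16 -0.115 and Pcdhb19 -0.19 with line 5ar3 alone. Between the EpiSC groups without EpiSC_AFX replicate 2, Pcdhac2 gave -0.047 (-0.047 to 0.23) and Pcdhgc5 0.12 (-0.37 to 0.12). No paired analysis was possible because replicate numbers follow accession order and the passage numbers mark no shared culture.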

Other observations

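Some non-coding genes of the locus, chosen after their values were seen, also differed between ES and the other cultures. The long non-coding gene 4930517L18Rik, between the beta and gamma clusters, was at 0.414, 0.542, 1.05 and 1.53 CPM in the ES libraries and had no count in the other 12 libraries. Gm10544, on the minus strand within the alpha cluster, had no count in ES and 0.438 to 1.13 CPM in the other libraries. The long non-coding gene 3222401L13Rik, which ends before the first gamma gene, was at 7.69 to 10.3 CPM in ES and 3.50 to 6.31 CPM elsewhere (FS against ES, log2 change -0.89 ± 0.188, SE; adjusted p = 0.000529, edgeR's quasi-likelihood test).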
